A study of Mus musculus with 13 samples.

Results

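MHC class I antigen presentation was followed through 10 genes, picked by symbol from the 55421 genes of the deposited count table. They were the heavy chain genes H2-K1, H2-D1, H2-Q4, H2-Q6 and H2-Q7, the light chain gene B2m, the peptide transporter genes Tap1 and Tap2, and the immunoproteasome genes Psmb8 and Psmb9. All 10 were found in the table and all 10 passed the filter on low counts in every comparison. The study sequenced RNA of mouse pancreatic islet cells sorted into beta cells, which had turned on a green membrane reporter, and non-beta cells, which still carried the red one. Control mice were Txnrd1.+/+ and mice labelled knockout were Txnrd1.fl/fl, at the gene of the cytosolic thioredoxin reductase. All of them were C57BL/6 mice aged 10 to 20 weeks that also carried Ins1.Cre/+ and Rosa26.mTmG/mTmG, so the recombinase was driven from the insulin gene Ins1 in controls and knockout-labelled mice alike. Islets spent a night in culture before dispersal and sorting of live cells. The 13 libraries were 4 of control beta cells, 3 of control non-beta cells, 3 of knockout-labelled beta cells and 3 of knockout-labelled non-beta cells. The labels do not say that the libraries of a group came from separate animals, so p-values measure the spread between these libraries only.

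Class I molecules show peptides from proteins made inside a cell to CD8 T cells. The proteasome cuts the proteins, and cells exposed to interferon exchange its catalytic subunits for those encoded by Psmb8, Psmb9 and Psmb10. The transporter formed by the Tap1 and Tap2 proteins carries the peptides into the endoplasmic reticulum, where a heavy chain paired with beta-2 microglobulin, the product of B2m, is loaded and then moves to the cell surface. H2-K1 and H2-D1 encode the classical heavy chains, whereas H2-Q4, H2-Q6 and H2-Q7 encode non-classical ones, and H2-Q6 and H2-Q7 encode Qa-2 antigens. Beta cells are the cells that CD8 T cells attack in autoimmune diabetes, and raised class I on islet cells is a known feature of that disease.

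B2m lies on chromosome 2 at chr2:122147686-122153083 and the other 9 genes lie on chromosome 17 (GRCm38, GENCODE M21). H2-K1 occupies chr17:33996017-34000347, and Psmb9, Tap1, Psmb8 and Tap2 follow each other between 34181987 and 34216321. H2-D1 begins at 35262730, H2-Q4 at 35379617, H2-Q6 at 35424850 and H2-Q7 at 35439155. Psmb9 and Tap1 point away from each other and share 212 bases of exon at their starts, on opposite strands. Genes on the other strand also cover 14.7 % of the exon bases of Psmb8, 18.5 % of those of Tap2 and 19.1 % of those of H2-Q4. The strand setting of the counting is not given in the sources used here, so reads in these stretches cannot be assigned to a strand. Heavy chain genes resemble each other. Of all 100-base windows in the transcripts of H2-Q6, 10.8 % occurred unaltered in another gene, and 8.36 % did so in H2-Q7. For H2-Q7 the share was 12 %, against 3.59 % for H2-D1, 2.16 % for H2-Q4 and 0.957 % for H2-K1, so the division of reads between H2-Q6 and H2-Q7 is less certain than the other counts.

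The heavy chain genes and B2m are shown by their promoters because these 6 held all of the motifs searched. In beta cells 5 of them fell and H2-Q4 was not called. RefSeq promoter entries (GRCm38.p6, 250 bases before to 50 after the start) were matched for 9 of the 10 genes, Tap2 having none. Capitals mark an NF-kappaB motif, an interferon-stimulated response element (GAAANNGAA or GAANNGAAA on either strand) and a CCAAT box (CCAAT on either strand). The motifs were chosen after these promoters had been read. The stretches run from chr17:34000355-34000466 for H2-K1 (minus strand), chr17:35262915-35263026 for H2-D1, chr17:35379435-35379546 for H2-Q4, chr17:35424669-35424779 for H2-Q6, chr17:35439014-35439123 for H2-Q7 and chr2:122147540-122147642 for B2m, the last 5 on the plus strand, each given 5′ to 3′ along its gene.
H2-K1: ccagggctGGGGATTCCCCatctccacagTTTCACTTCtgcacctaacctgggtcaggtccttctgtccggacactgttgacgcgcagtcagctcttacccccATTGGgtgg
H2-D1: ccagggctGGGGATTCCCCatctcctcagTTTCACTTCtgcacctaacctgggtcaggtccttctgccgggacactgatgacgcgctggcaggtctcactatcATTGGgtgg
H2-Q4: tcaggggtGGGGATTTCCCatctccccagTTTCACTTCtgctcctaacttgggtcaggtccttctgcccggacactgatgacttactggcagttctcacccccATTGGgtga
H2-Q6: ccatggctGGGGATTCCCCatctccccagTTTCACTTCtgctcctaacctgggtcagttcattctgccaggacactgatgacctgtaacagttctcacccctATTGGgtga
H2-Q7: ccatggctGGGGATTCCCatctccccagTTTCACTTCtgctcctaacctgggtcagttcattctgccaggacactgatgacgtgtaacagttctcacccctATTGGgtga
B2m: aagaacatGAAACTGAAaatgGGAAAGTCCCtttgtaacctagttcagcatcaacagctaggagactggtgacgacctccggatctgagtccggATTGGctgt
In all 5 heavy chain promoters the order was NF-kappaB, response element, CCAAT, and in B2m the response element came first. The stretches of H2-K1 and H2-D1 were 90.2 % identical and those of H2-Q6 and H2-Q7 were 98.2 % identical, while the remaining pairs of heavy chains ran from 84.2 to 87.5 %. Among 32851 promoters of the same length, 14.8 % held the response element letters, 4.51 % an NF-kappaB motif, 37.4 % a CCAAT box and 0.24 % all of them. The 6 genes above held all of them, but the motifs were chosen after reading these promoters, and 5 of the promoters resemble each other. The shares are thus a description and no test. The promoters of Tap1 and Psmb9 held a CCAAT box without the other letters, and the Psmb8 window held none of them. A match describes letters and does not show that a factor bound there.

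Library totals ran from 28.7 to 36.8 M counts. Levels below are CPM (counts per 1 M counts) scaled by TMM over all 13 libraries, given as mean ± SD, and levels of different genes are compared only as the authors' RPKM, which is per length. A gene is called changed at an edgeR quasi-likelihood adjusted p below 0.05 over all genes tested. Txnrd1 was higher in knockout-labelled beta cells (553 to 585 CPM) than in control beta cells (276 to 333 CPM), and the labels do not name the deleted exons, so its count does not check the genotype. Ins2 made up 13.6 to 22.6 % of counts in the beta libraries, and Gcg, the glucagon gene, 15.7 to 19.9 % in the non-beta libraries. Knockout-labelled beta replicate 3 held more of the other fraction (Gcg 0.39 % of counts against 0.0295 to 0.0682 % in the other beta libraries), and so did knockout-labelled non-beta replicate 3 (Ins2 2.46 % against 0.159 to 0.689 %).

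Class I transcripts were abundant in beta cells. Among 21926 protein-coding genes ordered by RPKM, H2-D1 held rank 18, B2m rank 36 and H2-K1 rank 37 in control beta cells, and ranks 37, 102 and 82 in knockout-labelled beta cells. In control beta cells H2-D1 stood at 688 ± 82.2 RPKM, B2m at 427 ± 81.7 and H2-K1 at 423 ± 43.0 (n = 4). The other heavy chains were far lower, with H2-Q6 at 14.5 ± 3.95, H2-Q4 at 3.87 ± 0.841 and H2-Q7 at 3.73 ± 1.2 RPKM. H2-Q4 and H2-Q7 did not differ beyond their spread, nor did B2m and H2-K1. Among the processing genes Tap2 (23.3 ± 3.14 RPKM) and Psmb8 (20.1 ± 2.60) lay above Psmb9 (7.85 ± 0.771) and Tap1 (4.89 ± 1.00). H2-K1 and H2-D1 together made up 98.1 % of the RPKM of the 5 heavy chains in control beta cells, 99.2 % in knockout-labelled beta cells, and 95.9 and 96.9 % in control and knockout-labelled non-beta cells.

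**Figure D1:**
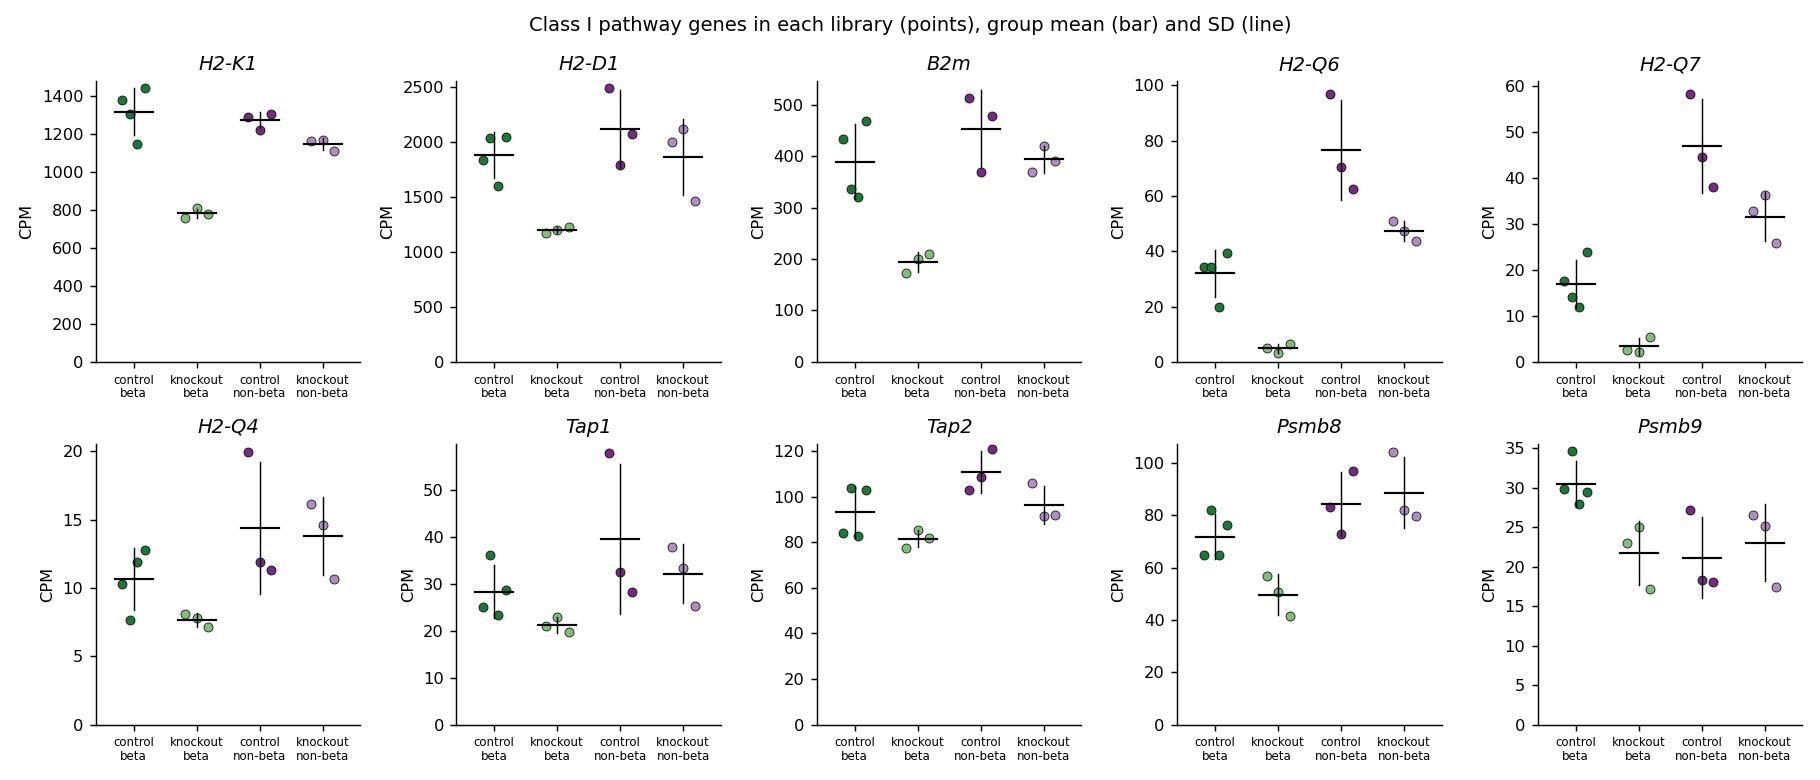
Expression of the 10 genes in CPM (vertical axes, each from 0) in every library, with group mean and SD. In H2-K1, H2-D1, B2m, H2-Q6, H2-Q7, Tap1, Psmb8 and Psmb9 all 3 knockout-labelled beta libraries lie below all 4 control beta libraries.

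In knockout-labelled beta cells class I transcripts were lower than in control beta cells. Of the 10 genes, 7 fell and none rose: H2-K1, H2-D1, H2-Q6, H2-Q7, B2m, Psmb8 and Psmb9. Over all 17525 genes tested, 20.1 % were called, 9.97 % lower and 10.1 % higher. The 10 genes were chosen with earlier results of these data known, so setting them beside all genes is a description and no test. The median log2 fold change of the 10 genes was −0.54, against 0.0066 for all genes, and all 10 values were negative. In 8 of the 10 genes every knockout-labelled library lay below every control library. The share of all genes that did so was not counted, so this count is a description only. In bulk RNA, fewer cells of a type and less RNA per cell cannot be told apart.

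Both classical heavy chains fell. H2-K1 read 1381, 1148, 1440 and 1304 CPM in control beta replicates 1 to 4 and 757, 808 and 780 CPM in knockout-labelled replicates 1 to 3. The groups were apart and the knockout-labelled libraries were the more alike, with a coefficient of variation of 3.27 % against 9.57 %. The log2 fold change was −0.71 (standard error, SE, 0.08, edgeR adjusted p = 0.000334), 1.63-fold lower. H2-D1, the most abundant member, read 1836, 1604, 2043 and 2037 CPM in the controls and 1173, 1198 and 1225 CPM under the knockout label, again without overlap (log2 fold change −0.60, SE 0.09, edgeR adjusted p = 0.000996; 1.52-fold lower). The ratio of H2-D1 to H2-K1 in RPKM was 1.63 ± 0.112 in control and 1.75 ± 0.0526 in knockout-labelled beta cells, and the groups overlapped.

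B2m, whose product every heavy chain listed here pairs with, read 433, 320, 468 and 337 CPM in the control libraries and 173, 201 and 210 CPM in the knockout-labelled ones. It was 1.94-fold lower (log2 fold change −0.96, SE 0.13, edgeR adjusted p = 0.000849). The ratio of B2m to the sum of the 5 heavy chains in RPKM was 0.376 ± 0.0504 in control and 0.307 ± 0.0240 in knockout-labelled beta cells, with overlap (exact permutation test, two-sided p = 0.171).

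The Qa-2 genes changed most among the 10. H2-Q6 read 34.5, 19.8, 39.5 and 34.4 CPM in control beta replicates 1 to 4 and 4.99, 3.09 and 6.47 CPM in the knockout-labelled replicates. The lowest control library, replicate 2, was still above the highest knockout-labelled one, replicate 3. The fall was 6.42-fold (log2 fold change −2.68, SE 0.27, edgeR adjusted p = 0.000106). H2-Q7 read 17.7, 11.9, 23.8 and 14 CPM in the controls and 2.48, 2.18 and 5.41 CPM under the knockout label, a 4.86-fold fall from 363 to 656 raw counts in the controls to 76, 81 and 204 (log2 fold change −2.28, SE 0.31, edgeR adjusted p = 0.000798). With the reads of H2-Q6 and H2-Q7 added into 1 gene the log2 fold change was −2.53 (edgeR adjusted p = 0.000165). With all 8 H2-Q genes added it was −0.87 (edgeR adjusted p = 0.000119), and H2-Q2, at 139 ± 8.65 CPM in control beta cells, was then the largest contributor. Relative to H2-K1 in the same library, H2-Q6 RPKM went from 3.38 ± 0.653 % in control to 0.879 ± 0.317 % in knockout-labelled beta cells, with no overlap. For a ratio in 4 against 3 libraries the exact two-sided permutation test cannot go below p = 0.0571, which is the value reached here (0.0857 after adjustment over 6 ratios).

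Knockout-labelled beta replicate 3, which held the most glucagon transcripts, also had the highest H2-Q6 and H2-Q7 of its group. Both genes are more abundant in the non-beta fraction. Without that library the log2 fold changes were −2.94 for H2-Q6 and −2.80 for H2-Q7 (edgeR adjusted p = 0.000159 and 0.000184), both larger falls than with it. The part of non-beta RNA in these values was not tested.

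H2-Q4 was not called. It read 10.3, 11.9, 12.7 and 7.63 CPM in control beta replicates 1 to 4 and 8.12, 7.80 and 7.13 CPM under the knockout label, and control replicate 4 lay among the knockout-labelled libraries (log2 fold change −0.42, SE 0.17, edgeR adjusted p = 0.105). With the replicate number as a block, which leaves control replicate 4 out, it was called (log2 fold change −0.57, edgeR adjusted p = 0.0189), as it was without that library and without the block (edgeR adjusted p = 0.0133). Over 14 alternatives its edgeR or DESeq2 adjusted p ran from 0.0133 to 0.288.

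Both immunoproteasome genes fell, with smaller log2 fold changes than the genes above that were called. Psmb8, which encodes the subunit that replaces the product of Psmb5, read 64.7, 64.7, 76.1 and 82.0 CPM in the controls and 56.9, 50.6 and 41.4 CPM under the knockout label. The groups did not overlap (log2 fold change −0.48, SE 0.13, edgeR adjusted p = 0.0228). Psmb9, whose product replaces that of Psmb6, read 29.8, 27.9, 29.5 and 34.6 CPM against 22.9, 25.0 and 17.2 CPM (log2 fold change −0.44, SE 0.13, edgeR adjusted p = 0.041). The Psmb9 call was lost when any 1 of 6 of the 7 libraries was left out (edgeR adjusted p = 0.0568 to 0.0753), control replicates 1 to 4 and knockout-labelled replicates 1 and 3. The Psmb8 call was lost without control replicate 3 (edgeR adjusted p = 0.058) or knockout-labelled replicate 2 (0.0598). With all 13 libraries in 1 fit both calls were lost (edgeR adjusted p = 0.0646 for Psmb8 and 0.184 for Psmb9).

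Of the transporter genes neither was called. Tap1 read 25.2, 23.4, 28.7 and 36.1 CPM in the controls and 20.9, 23 and 19.7 CPM under the knockout label, with all knockout-labelled libraries lower (log2 fold change −0.37, SE 0.14, edgeR adjusted p = 0.0779). In the authors' deposited table Tap1 had a false discovery rate of 0.0369. Tap2 ranged from 82.6 to 104 CPM in control and from 77.7 to 85.3 CPM in knockout-labelled beta cells, which overlap (log2 fold change −0.15, 95 % interval −0.35 to 0.06, edgeR adjusted p = 0.287).

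**Figure D2:**
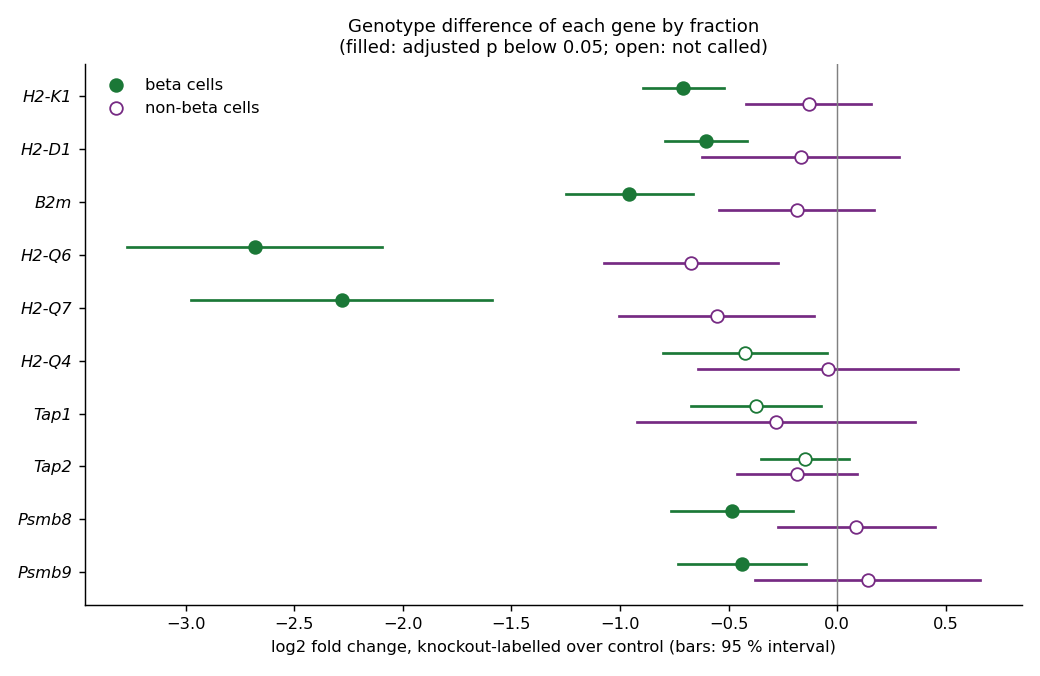
Log2 fold change of knockout-labelled over control cells with its 95 % interval, per gene, in beta cells (green) and non-beta cells (purple), with filled points for adjusted p below 0.05. H2-Q6 (−2.68) and H2-Q7 (−2.28) lie farthest from 0 in beta cells, and no non-beta point is filled.

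Of the constitutive counterparts of the immunoproteasome subunits 1 of 3 rose and none fell, against 10.1 % of all genes called higher. Psmb5 rose by 0.39 in log2 (SE 0.11, edgeR adjusted p = 0.0269), and Psmb6 and Psmb7 stood at 0.31 and 0.17 without a call. The RPKM ratio of Psmb8 to Psmb5 was 0.152, 0.185, 0.176 and 0.229 in control beta replicates 1 to 4 and 0.105, 0.101 and 0.0923 in the knockout-labelled ones. The ratio of Psmb9 to Psmb6 was 0.0767, 0.0867, 0.0835 and 0.104 in the controls and 0.0487, 0.0603 and 0.0471 under the knockout label. Psmb10, which encodes another inducible subunit, was not called by itself (log2 fold change −0.26, edgeR adjusted p = 0.187), and its ratio to Psmb7 was 2.09 ± 0.238 against 1.54 ± 0.224. In each of the 3 ratios all knockout-labelled beta libraries lay below all control beta libraries. Each gave the smallest p the exact two-sided permutation test allows (p = 0.0571, and 0.0857 after adjustment over 6 ratios). The ratios are made of genes tested above in the same libraries, so they are not independent of those tests.

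**Figure D3:**
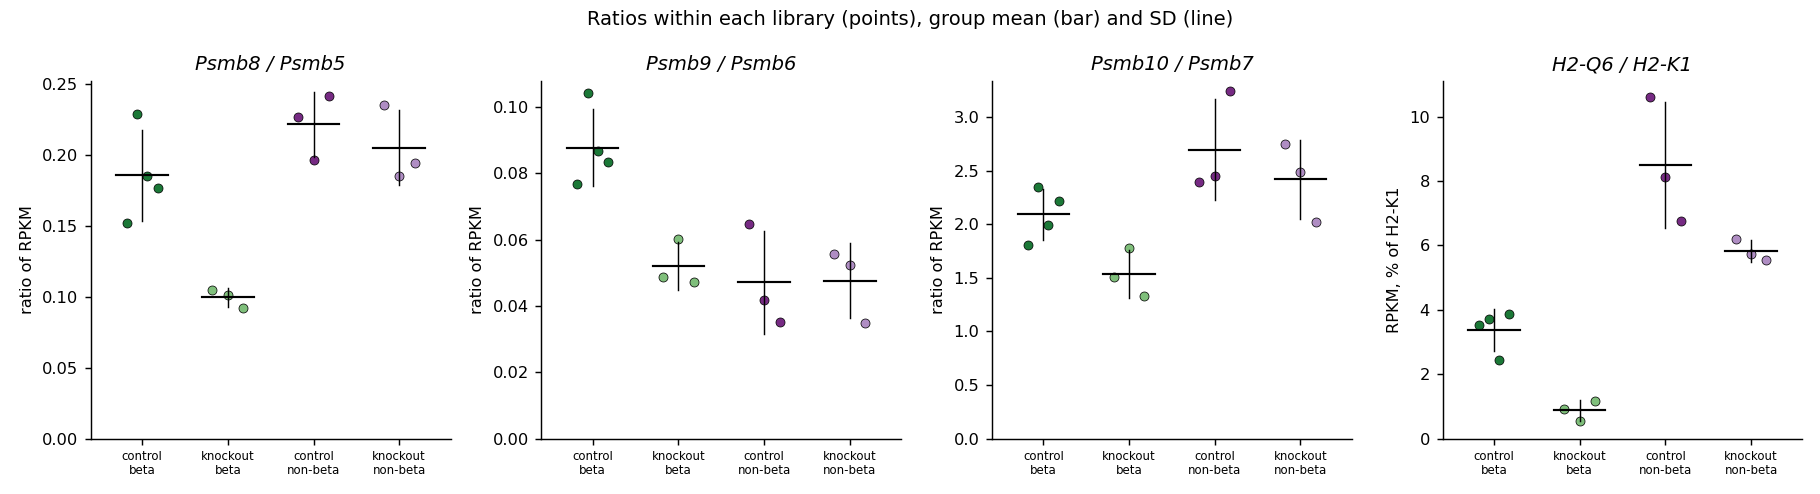
RPKM ratios within each library for the inducible over the constitutive proteasome subunits and for H2-Q6 as a percent of H2-K1 (vertical axes from 0), with group mean and SD. The knockout-labelled beta libraries lie below the control beta libraries in all 4 panels, and for H2-Q6 over H2-K1 both beta groups lie below both non-beta groups.

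Another 95 genes of the pathway were counted from 9 lists, of which 75 were tested in beta cells, 4 rising (5.33 %, against 10.1 % of all genes) and 17 falling (22.7 %, against 9.97 % of all genes). The lists too were chosen with earlier results of these data known, so these shares are a description and no test. Among the other class I heavy chains 5 of 10 tested fell and 1 rose. H2-T23, which encodes Qa-1, fell by 0.89 in log2 (edgeR adjusted p = 0.00114), H2-M3, whose product binds formylated peptides, by 0.67 (0.000347) and H2-Q2 by 0.57 (0.000646), while H2-T22 and H2-T10 fell by 0.51 and 0.85. The one that rose was Hfe, whose product controls iron uptake and does not present peptides (log2 fold change 0.87, edgeR adjusted p = 6.61e-05). The median of this list was −0.54.

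Of the 10 genes for peptide loading and trimming 7 fell and none rose (median log2 fold change −0.37). They were Tapbp, which encodes tapasin, the bridge between transporter and heavy chain (−0.54, edgeR adjusted p = 0.00146), its relative Tapbpl (−0.37), the chaperone genes Calr (−0.42) and Pdia3 (−0.48), the folding sensor gene Uggt1 (−0.63), the translocon gene Sec61a1 and the trimming peptidase gene Erap1. Calr, Pdia3, Uggt1 and Sec61a1 also serve the folding of secreted proteins at large. Of 6 further immunoproteasome and activator genes 1 fell, the activator gene Psme4 (−0.28), and of 7 cytosolic peptidase genes 1 rose, Lap3 (0.40). Single calls in lists of this size are near the share of all genes called, 9.97 % lower and 10.1 % higher.

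Of 20 regulators of class I transcription 2 fell (10 %) and 1 rose (5 %), close to or below the 9.97 and 10.1 % of all genes, so the count is not a result about these regulators. Irf7, an interferon-induced regulator, fell by 1.31 in log2 (edgeR adjusted p = 0.000235) and Nfyc by 0.38 (0.00747), while Nfyb rose by 0.27 (0.0494). Nfyb and Nfyc encode subunits of the factor that binds CCAAT boxes. Nlrc5, the class I transactivator, was low in both groups (1.68 ± 0.330 and 1.65 ± 0.599 CPM). Of 11 interferon receptor and signalling genes tested 2 fell, Ifnar1 by 0.48 and Jak1 by 0.32 (edgeR adjusted p = 0.00466 and 0.0199), a share of 18.2 %. Neither of the 2 ligand genes tested, Cd47 and Cd274, and none of the 6 class II genes tested was called by edgeR, with 1 and 2 of them at an unadjusted p below 0.05. Of all 17525 genes tested 6032 were below that value, so these counts are no result about the 2 lists.

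**Figure D4:**
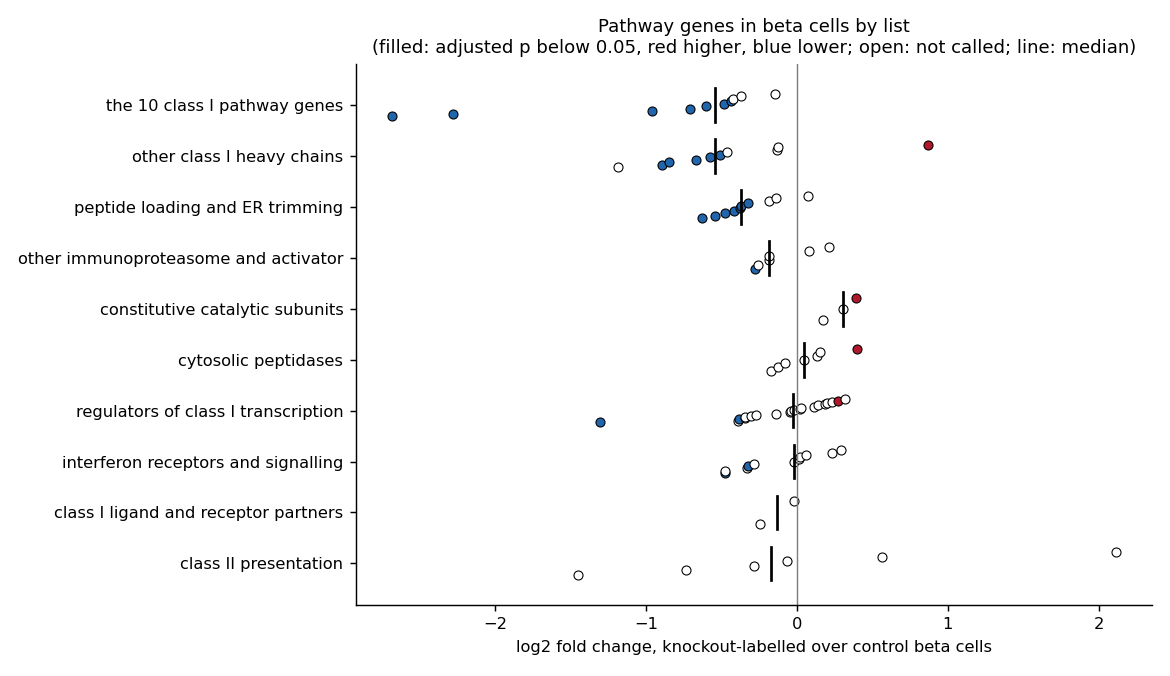
Log2 fold change of knockout-labelled over control beta cells for the 10 genes and for each tested gene of 9 further pathway lists, with the median as a line. Filled points passed adjusted p below 0.05, blue lower and red higher, and the lists of other heavy chains (median −0.54) and of peptide loading (−0.37) lie left of 0.

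Markers of cell types in the beta fraction were measured beside these falls. Of 8 beta cell markers 5 fell (62.5 %, against 9.97 % of all genes) and none rose (median log2 fold change −0.73). They were the glucose transporter gene Slc2a2 (−2.03), the transcription factor gene Mafa (−1.75), Ucn3 (−1.18), the zinc transporter gene Slc30a8 (−0.73) and Ins1 (−0.73). The sum of the 8 markers ran from 266769 to 306255 CPM in control and from 160950 to 274969 CPM in knockout-labelled libraries, lowest in replicate 3. Median log2 fold changes were higher than that of all genes for the tested markers of alpha (0.35; 1 rose and 2 fell of 6), PP (1.2; 1 rose of 2), delta (1.14; none called of 3), endothelial (0.81; 1 rose of 4) and acinar cells (1.40; none called of 6). In each of these lists knockout-labelled replicate 3 had the highest sum of the beta libraries, and H2-K1, H2-D1, H2-Q6, H2-Q7 and B2m were called lower without it. Ductal markers also had a higher median (0.045, with 1 risen and 1 fallen of 4). Their sum ran from 948 to 1044 CPM in control and from 1439 to 1574 CPM in knockout-labelled beta libraries, lowest of the latter in replicate 3. Of the 6 ductal genes 4 had higher and 2 had lower means under the knockout label. The most abundant of the 4 had a mean of 1480 CPM in knockout-labelled beta cells, so it made up most of that sum. Over all genes 9.97 % were called lower and 10.1 % higher. Calls in the lists of other cell types, at most 2 in a direction, are thus no result about those cells. The part of the beta cell markers in the class I result was not tested. In control beta cells 11 of 12 macrophage and dendritic cell genes were detected, with Itgam at 0, and their sum ran from 113 to 141 CPM. In knockout-labelled beta cells all 12 were detected and the sum ran from 87.6 to 102 CPM, against 407 to 427 CPM and 516 to 533 CPM in the 2 non-beta groups. C1qa (47.1 to 72.7 CPM in control and 30.3 to 52.7 CPM in knockout-labelled libraries) and Cd68 (47.8 to 71.7 and 36.1 to 39.9 CPM) made up most of the sum in beta cells. Of these, Cd68 was called lower (log2 fold change −0.52, edgeR adjusted p = 0.017) and C1qa was not (−0.36, 0.211). Means were lower under the knockout label for 3 of the 12 genes, the remaining one being Csf1r, and higher for the other 9, none of which was tested and none of which had a mean above 1.31 CPM in either beta group. Ptprc, the gene of the pan-leukocyte antigen, was at most 0.0726 and 0.265 CPM. The 7 lymphocyte genes summed to 1.49 to 2.82 CPM in control and 0.927 to 1.51 CPM in knockout-labelled beta cells, with 6 and 3 of them at 0, Ms4a1, Nkg7 and Trbc1 in both groups. The part of these markers in the class I result was not tested.

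In non-beta cells none of the 10 genes was called between the genotypes, nor was any of the 18908 genes tested (0 %), with 821 of all genes and 2 of the 10 at an unadjusted p below 0.05. DESeq2 called 29 of all genes and 0 of the 10. The median of the 10 log2 fold changes was −0.18, and 8 of them were negative. H2-Q6 read 70.4, 62.5 and 96.9 CPM in control non-beta replicates 2 to 4 and 51.0, 47.5 and 43.8 CPM in knockout-labelled replicates 1 to 3, all lower (log2 fold change −0.67, SE 0.17, edgeR adjusted p = 0.999). H2-Q7 read 44.6, 38.1 and 58.2 CPM against 32.8, 36.2 and 25.8 CPM, also all lower (−0.55, SE 0.20, edgeR adjusted p = 0.999). H2-K1 was the remaining gene without overlap, at 1223 to 1305 CPM in control and 1113 to 1169 CPM in knockout-labelled libraries (−0.13, 95 % interval −0.42 to 0.15). The share of all genes without overlap was not counted in this fraction either. Knockout-labelled non-beta replicate 3, with the most insulin transcripts of its fraction, was the lowest of its group in 8 of the 10 genes, and the part of that RNA in these values was not tested.

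The difference between the fractions was tested as an interaction over all 13 libraries. It was called for 1 of the 10 genes, H2-Q6, at −2 in log2 (SE 0.36, edgeR adjusted p = 0.0207), so its genotype difference was lower in beta cells (−2.68) than in non-beta cells (−0.67). Over all 19942 genes 0.928 % were called, 0.316 % with a lower value in beta cells. H2-K1 (−0.57, edgeR adjusted p = 0.0793), H2-Q7 (−1.73, 0.0874) and B2m (−0.76, 0.15) missed the threshold, and for these a different response of the fractions was not shown. Among the pathway lists H2-M3 and H2-Q2 were called in the same direction (−0.73 and −0.62, edgeR adjusted p = 0.0136 and 0.0361). The H2-Q6 call was lost without control non-beta replicate 2 (edgeR adjusted p = 0.073), when knockout-labelled beta replicate 1 was left out (0.0574) and under a block for the replicate number (−1.96, 0.0809). Without knockout-labelled beta replicate 3, H2-Q7 was called as well (0.0241). Over 21 alternatives H2-Q6 was called in 18, with adjusted p from 1.17e-05 to 0.0809. Apart from these, the reads of H2-Q6 and H2-Q7 added together gave −1.90 (edgeR adjusted p = 0.0304), and those of all 8 H2-Q genes gave −0.59 without a call (0.101).

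Between the fractions of control islets the Qa-2 genes were lower in beta cells and Psmb9 was higher. These were the 3 of the 10 genes called, whereas 53.5 % of 19014 genes were called, 28.6 % as lower and 24.8 % as higher in beta cells. The share of the 10 genes called was thus below that of all genes. H2-Q6 was 2.43-fold lower in control beta than in control non-beta cells (32.0 ± 8.52 against 76.6 ± 18 CPM; log2 fold change −1.28, SE 0.23, edgeR adjusted p = 0.000989). H2-Q7 was 2.83-fold lower (16.9 ± 5.22 against 47.0 ± 10.3 CPM; −1.50, SE 0.23, edgeR adjusted p = 0.00044). All 8 H2-Q genes added together were not called (−0.27, edgeR adjusted p = 0.0641). Tap2 missed the threshold (−0.27, edgeR adjusted p = 0.0559) and was called lower in 8 of 15 alternatives (adjusted p from 0.0199 to 0.154 over the 15). In the authors' deposited table, false discovery rates below 0.05 were given for 6 of the 10 genes, the added ones being Tap1 (0.0246), Tap2 (0.0274) and Psmb8 (0.0478). Psmb9 was 1.42-fold higher in beta cells (30.4 ± 2.90 against 21.2 ± 5.18 CPM; 0.50, SE 0.16, edgeR adjusted p = 0.0232), a call lost without control beta replicate 1 or 4 or control non-beta replicate 2 or 3 (edgeR adjusted p = 0.0516 to 0.0957). H2-K1 stood at 1318 ± 126 and 1272 ± 43.1 CPM (log2 fold change 0.03, 95 % interval −0.20 to 0.26), and B2m at 389 ± 72.5 and 453 ± 75.1 CPM (−0.24, 95 % interval −0.61 to 0.13).

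Loading genes went the other way to the Qa-2 genes, with 8 of 10 higher in control beta than in control non-beta cells, against 24.8 % of all genes, and none lower. Among them were Calr (log2 fold change 2.06), Uggt1 (1.47), Pdia3 (0.66) and Sec61a1 (0.51). Of 8 tested class II genes 7 were lower in beta cells (87.5 %, against 28.6 % of all genes). H2-Ab1, a class II chain gene, stood at 2.04 ± 0.888 CPM in control beta and 194 ± 40.7 CPM in control non-beta cells (log2 fold change −6.59, edgeR adjusted p = 1.5e-07). Cd74, the class II invariant chain gene, was lower by a log2 value of −5.83. Of 11 interferon receptor and signalling genes 6 were lower in beta cells (54.5 %, against 28.6 % of all genes). Higher were 2 (18.2 %, below the 24.8 % of all genes). Ifngr2, Ifnar2 and Ifngr1, which encode interferon receptor chains, were lower (−1.22, −1.09 and −0.78), and the kinase gene Jak1 was higher (0.67).

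In islets labelled knockout 8 of the 10 genes were lower in beta than in non-beta cells, and 42.6 % of 18775 genes were called, 23.5 % lower. This comparison and the genotype comparison in beta cells share the knockout-labelled beta libraries. H2-Q6 differed 9.88-fold (log2 fold change −3.30, SE 0.25, edgeR adjusted p = 4.14e-05) and H2-Q7 9.47-fold (−3.24, SE 0.34, edgeR adjusted p = 0.000163). B2m (−1.03), H2-Q4 (−0.86), Psmb8 (−0.85), H2-D1 (−0.65), Tap1 (−0.62) and H2-K1 (−0.57) were the others. The Tap1 call was lost without knockout-labelled beta replicate 3 (edgeR adjusted p = 0.0506), without knockout-labelled non-beta replicate 1 (0.0645) and with all 13 libraries in 1 fit (0.0678). Tap2 (−0.26, edgeR adjusted p = 0.0864) and Psmb9 (−0.10, 0.715) were not called. For H2-Q6 the order of the group levels was thus control non-beta (76.6 ± 18 CPM), knockout-labelled non-beta (47.4 ± 3.58), control beta (32.0 ± 8.52) and knockout-labelled beta (4.85 ± 1.69), with no overlap between neighbours. For B2m it was control non-beta, knockout-labelled non-beta, control beta and knockout-labelled beta, and only the last lay apart from its neighbour.

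Libraries of a group also differed in a shared direction. Control beta replicate 2 was the lowest of the 4 in 9 of the 10 genes, control non-beta replicate 4 the highest of 3 in 7, and knockout-labelled non-beta replicate 3 the lowest of 3 in 8. The widest spread within a group was that of H2-Q7 in knockout-labelled beta cells, with a coefficient of variation of 53.1 %.

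The genes whose log2 CPM followed the mean of the 10 most closely were found among 12008 genes with a mean of at least 5 CPM. Over all 13 libraries these were St6galnac4 (Pearson r = 0.96), AW112010 (0.96), Ly6e (0.95), Dusp10 (0.94) and Nptx2 (0.94). Over the 7 beta libraries they were Car15, Gm4673, Gm20518, Pdcd4 and Rab27a (all 0.99). The libraries of a group share genotype and fraction, so these values describe the differences between the groups above all.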

How the data were processed

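The deposited table gives raw counts per gene, with the authors' RPKM beside them, per the file headers. The submitters' processing notes name FastQC, STAR, edgeR and the build GRCm38.p6, without versions. The counting program, its strand setting and its treatment of reads over several genes are not given in the sources used here. Per the labels' protocols, cDNA came from 5 to 10 ng of RNA by SMART-Seq and Nextera chemistry. Log2 fold changes and false discovery rates (adjusted p-values) also come in tables the authors deposited for each pair of groups. For the 10 genes they differed from the log2 fold changes here by at most 0.00938 between genotypes in beta cells and 0.0967 between fractions.

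The tests ran in edgeR 4.0.16 (R 4.3.3): filterByExpr, TMM, the quasi-likelihood F test over the libraries of a comparison, and Benjamini-Hochberg adjustment over all genes tested. The interaction used all 13 libraries with 4 group means. DESeq2 1.42.0 was an alternative, and the code was tested on simulated data. The members and lists were chosen with earlier results of these data known; some genes of the lists are not reported here and are left out of the list counts. The text names all 10 genes, up to 6 genes of a list by adjusted p in beta cells, up to 4 between the control fractions, and the 5 most alike in pattern; Nlrc5, C1qa, Cd68, Csf1r, Ptprc, Erap1 and the beta cell markers lie outside this rule and were named after their values were seen.

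Replicate numbers were shared across groups. Deviations of same-numbered libraries from their group means correlated at 0.185, 0.185 and 0.336 between control and knockout-labelled beta cells. Knockout-labelled replicate 2 and control replicate 1 reached 0.235, so these values do not show pairs. Between beta and non-beta cells, same-numbered libraries stood at 0.0987, 0.117 and 0.0386 under the knockout label, where every unlike-numbered pair was negative. Deviations within a group cancel out, so positive values for same numbers bring negative ones for unlike numbers on balance. Control replicates 2 to 4 stood at 0.119, 0.0645 and 0.239, and unlike-numbered ones reached 0.159. Same-numbered non-beta libraries of the 2 genotypes stood at −0.0936 and 0.397. The labels do not say what a number marks, so the main tests used no block. Spearman correlations within groups ran from 0.964 to 0.996 and no files were identical.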

Additional observations from a re-analysis of the deposited data

Results flagged for a closer look

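The genotype difference of H2-Q6, a Qa-2 heavy chain gene, differed between the fractions by −2 on the log2 scale (standard error 0.36, edgeR interaction test over 13 libraries, adjusted p = 0.0207). With the replicate number as a block it was −1.96 and not called (edgeR adjusted p = 0.0809). All 3 knockout-labelled libraries lay below all controls in both fractions, at 3.09 to 6.47 against 19.8 to 39.5 CPM in beta cells and at 43.8 to 51.0 against 62.5 to 96.9 CPM in non-beta cells. No library of a control beta group stood apart from the other 3 in any of the 10 genes by Dixon's test, and groups of 3 were not tested.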

How the results depend on the processing

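The 10 genes were refitted with RLE size factors, without hormone genes, with DESeq2, without a filter, with a stricter one (at least 5 CPM in 3 libraries), with a replicate block, with all 13 libraries in 1 fit, without each library and without pairs of libraries. Of 770 values, 707 kept direction and side of the threshold, 20 lost a call, 22 gained one and 21 changed sign. Adding reads of H2-Q genes together gave another 20 values for H2-Q6 and H2-Q7, of which 16 kept both, 3 lost a call and 1 gained one. The cause was not tested where a result moved. In beta cells the number of the 10 genes called ran from 5 (all 13 libraries in 1 fit, and without control replicate 3) to 8 (DESeq2, no filter, replicate block). H2-K1, H2-D1, H2-Q6, H2-Q7 and B2m were called in all 14 alternatives.

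The replicate block changed no call of the 10 genes in beta cells other than H2-Q4. In the interaction it left 0 of the 10 genes and 49 genes in all called. Other counts of the 10 genes called in the interaction were 4 with DESeq2 (H2-K1, H2-Q6, H2-Q7 and B2m), 2 without a filter, 2 without both knockout-labelled replicate 3 libraries and 0 to 2 when 1 library was left out. Genes called in the interaction numbered 557 with DESeq2, 90 without both control replicate 4 libraries (chosen after seeing the data) and 62 to 289 when 1 library was left out. In beta cells all 13 libraries in 1 fit called 1673 genes, and leaving 1 out gave 1991 to 4117, lowest without knockout-labelled replicate 1, with 2218 without control replicate 2 and 2343 without knockout-labelled replicate 2. In non-beta cells 29 genes were called by DESeq2, 1 without a filter, 10 with the replicate block and 3 with all 13 libraries. Between the knockout-labelled fractions the stricter filter, which tests fewer genes, called 5319.

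Sign changes concerned log2 values that were not called in the main fit. In non-beta cells the replicate block gave H2-Q4 0.13 and Psmb8 −0.034. When 1 library was left out, H2-Q4 ran from −0.19 to 0.27, Tap1 from −0.48 to 0.10 and Psmb8 from −0.044 to 0.20. Between control fractions H2-K1 was −0.0088 with the stricter filter, −0.018 with the replicate block and −0.013 to 0.093 when 1 was left out. Between knockout-labelled fractions Psmb9 ran from −0.28 to 0.052, and in the interaction Tap1 from −0.47 to 0.11 and Tap2 from −0.022 to 0.12.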
